A study of Mus musculus with 13 samples.

Results

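The inflammatory CC chemokine genes Ccl2, Ccl3, Ccl4, Ccl5, Ccl6, Ccl7, Ccl8, Ccl9, Ccl12 and Ccl24 were followed through 13 mouse RNA-seq libraries. They are the 10 rows with these symbols among the 21073 genes of the expression table, and all 10 were found. The study concerned experimental autoimmune encephalomyelitis (EAE), a mouse model of multiple sclerosis in which immunization with a myelin peptide (MOG35-55) in complete Freund's adjuvant sets off T cell driven inflammation of the spinal cord. All mice were on a C57BL/6J background and were either wild type (WT) or DKI, a line whose STAT5, a transcription factor activated by cytokines, cannot form tetramers. From DKI mice that also received pertussis toxin, monocyte-derived antigen-presenting cells (APCs) and monocytes were sorted from the spinal cord and monocytes from the bone marrow on day 14, with 1 library each. No WT myeloid library was analysed here.

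The other 10 libraries are Th17 cultures, in which spleen and lymph node cells from immunized mice were taken on day 14, restimulated with the peptide under Th17 conditions, and sorted for CD4+ T cells 3 days later. By the series design these mice did not receive pertussis toxin. The treatment text of the samples names the toxin for every sample, so its use in the Th17 mice is uncertain. There were 3 libraries of DKI cells expanded with the chemokine CCL17 (withCCL17 cultures), 3 of DKI cells expanded without it (noCCL17 cultures), 2 labelled only as DKI (DKI cultures) and 2 of WT cells (WT cultures). The sources used here do not say whether animals were pooled, whether libraries of a group came from separate animals, how much CCL17 was added or which gates defined the cells, so p-values measure only the spread between these libraries, which may be technical. Estimated assigned reads ranged from 12500000 to 31700000 per library. The labelled cell types were checked against marker lists. The 10 monocyte and macrophage markers summed to 16071 RPKM (read counts divided by transcript length and by the size of the library) in spinal cord APCs, 15312 in spinal cord monocytes and 20382 in bone marrow monocytes, and the 8 T cell markers to 2094 to 3274 RPKM in the Th17 libraries, against 29.2, 26.3 and 0.125 RPKM in those myeloid libraries.

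CC chemokines are small secreted proteins that bind G protein-coupled receptors on leukocytes and draw them out of blood and into inflamed tissue. In EAE, the CCR2 ligands Ccl2, Ccl7 and Ccl12 are known for recruiting monocytes, Ccl3, Ccl4 and Ccl5 attract myeloid cells and T cells, Ccl6 and Ccl9 are CCR1 ligands made by myeloid cells, Ccl8 acts on CCR8 in the mouse, and Ccl24 is an eotaxin that acts on CCR3 of eosinophils. Many of them are induced by NF-kB and by interferons, and macrophages make most of them.

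In the mouse genome (GRCm38.p6, the assembly that mm10 is made from), 9 of the 10 genes lie on chromosome 11. Ccl2, Ccl7, Ccl12 and Ccl8 sit within 81.2 kb (chr11:82035577-82116799), and Ccl5, Ccl9, Ccl6, Ccl3 and Ccl4 within 138.9 kb (chr11:83525778-83664683). Within the first cluster the genes run from Ccl2 (chr11:82035577-82037452) and Ccl7 (chr11:82045712-82047525) to Ccl12 (chr11:82101845-82103399) and Ccl8 (chr11:82115185-82116799). The second holds Ccl5 (chr11:83525778-83530518), Ccl9 (chr11:83572917-83578636), Ccl6 (chr11:83587886-83593087), Ccl3 (chr11:83647843-83649378) and Ccl4 (chr11:83648624-83664683). Ccl24 is on chromosome 5 (chr5:135569935-135573123). The RefSeq models of Ccl3 and Ccl4 overlap, and the strand setting of the read counting is not given in the sources used here. Whether reads in the overlap were counted for either gene is therefore unknown, and the separate values of Ccl3 and Ccl4 are uncertain. RefSeq sequence of the 250 bases before the start was at hand for 5 genes, Ccl3, Ccl6, Ccl8, Ccl9 and Ccl12. Those of Ccl12 and Ccl8, neighbours whose levels separate the libraries in different ways, and of Ccl9, the gene that held the most matches to the motifs searched, are printed below 5′ to 3′, with the matches in capitals.
Ccl12, chr11:82101595-82101844, plus strand: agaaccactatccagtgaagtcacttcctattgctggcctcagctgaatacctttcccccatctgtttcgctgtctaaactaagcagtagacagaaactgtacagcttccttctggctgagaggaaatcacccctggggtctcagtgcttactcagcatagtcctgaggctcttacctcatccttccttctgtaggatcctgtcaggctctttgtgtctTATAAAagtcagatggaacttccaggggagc
Ccl8, chr11:82114935-82115184, plus strand: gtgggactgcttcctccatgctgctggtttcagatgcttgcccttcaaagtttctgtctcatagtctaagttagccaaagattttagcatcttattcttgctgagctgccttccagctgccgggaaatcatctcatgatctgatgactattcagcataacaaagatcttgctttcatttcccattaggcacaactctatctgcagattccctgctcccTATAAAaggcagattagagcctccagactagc
Ccl9, chr11:83578637-83578886, minus strand: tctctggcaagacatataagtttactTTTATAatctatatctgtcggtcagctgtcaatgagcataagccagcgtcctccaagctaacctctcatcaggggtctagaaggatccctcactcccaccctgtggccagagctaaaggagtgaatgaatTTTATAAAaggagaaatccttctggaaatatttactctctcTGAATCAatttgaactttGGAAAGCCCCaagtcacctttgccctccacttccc
The motifs, searched on both strands, were that of NF-kB (GGG, any 5 bases, CC, held by 45.8% of 32851 mouse promoter windows of the same length), TTCNNNGAA (STAT, 7.0%), TGANTCA (AP-1, 6.7%), the interferon-stimulated response element (GAAA, any 2 bases, GAAA, 3.0%) and TATAAA (12.4%). The last was added after the sequences had been seen. Ccl12 and Ccl8 each held TATAAA, starting 31 and 32 bases before the start, and no other of these motifs. In their 300-base windows around the start, 186 aligned bases of this pair were 65.1% identical. Ccl9 held an NF-kB match (GGAAAGCCCC, 35 to 26 bases before the start), an AP-1 match 53 to 47 bases before it, and 3 TATAAA matches, of which a pair overlapped. Ccl6 and Ccl9 shared a stretch of 67 aligned bases with 86.6% identity, and the other 8 pairs of the 5 genes aligned over 9 to 24 bases. Ccl3 and Ccl6 held none of these letters.

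Added together, the 10 genes reached 2610 RPKM in spinal cord APCs, 3421 in spinal cord monocytes and 888 in bone marrow monocytes. Among the Th17 cultures they summed to 463, 589 and 630 RPKM in withCCL17, 527, 832 and 833 in noCCL17, 31.0 and 46.1 in DKI, and 94.0 and 45.5 in WT cultures. The noCCL17 and withCCL17 ranges overlapped, as did those of WT and DKI, while every library of the CCL17 experiment lay above every DKI and WT library. In bulk samples, fewer cells of a type and less RNA per cell cannot be told apart.

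**Figure D1:**
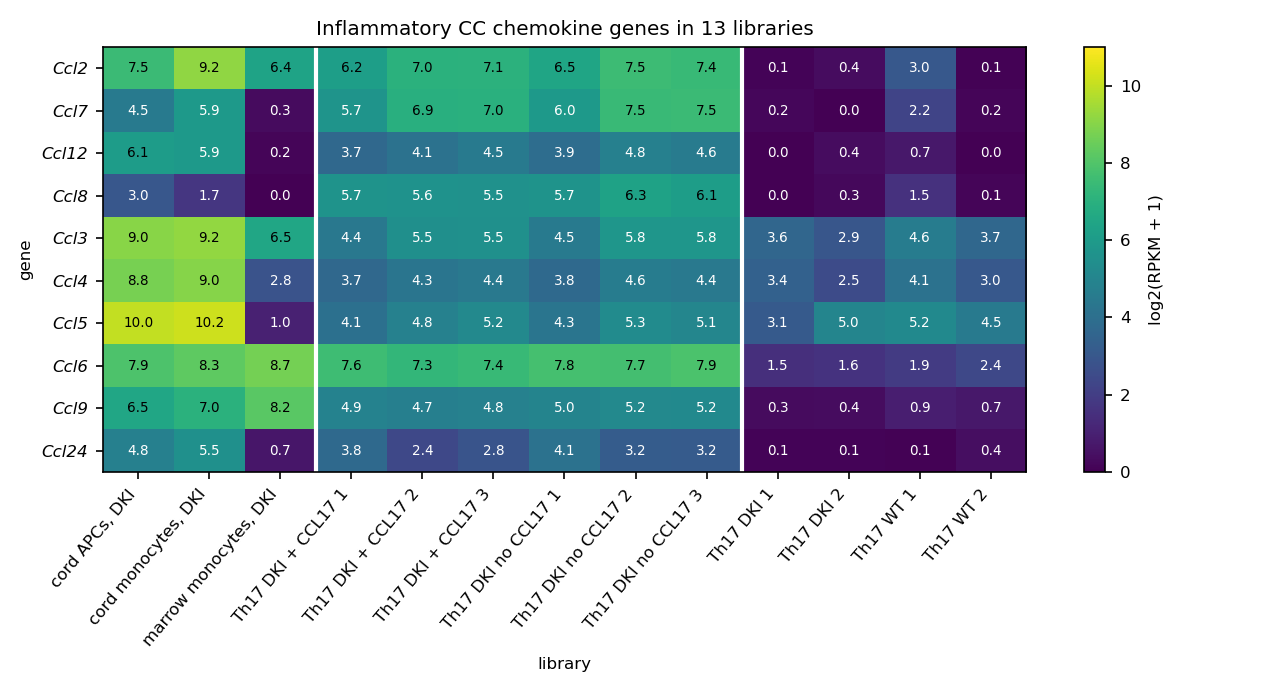
Level of each of the 10 chemokine genes (rows) in each of the 13 libraries (columns), as log2(RPKM + 1), with the value printed in each cell. The spinal cord libraries are high in most rows, bone marrow monocytes are high in Ccl6 and Ccl9, and 6 of the 10 rows are near 0 in the DKI cultures but not in the withCCL17 and noCCL17 cultures.

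Which chemokine dominated also differed between libraries. Ccl5 made up 39.0% of the summed RPKM in spinal cord APCs and 33.5% in spinal cord monocytes, but 0.112% in bone marrow monocytes, where Ccl6 (47.3%) and Ccl9 (32.4%) led. In the withCCL17 and noCCL17 cultures Ccl6 was the largest component, at 24.8% to 41.4%, followed in 4 of the 6 libraries by Ccl2 and Ccl7 at 20.1% to 22.2% each. The DKI and WT cultures were dominated by Ccl3, Ccl4 and Ccl5, with Ccl5 alone at 25.0% and 68.3% in the DKI and 38.8% and 47.0% in the WT libraries.

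**Figure D2:**
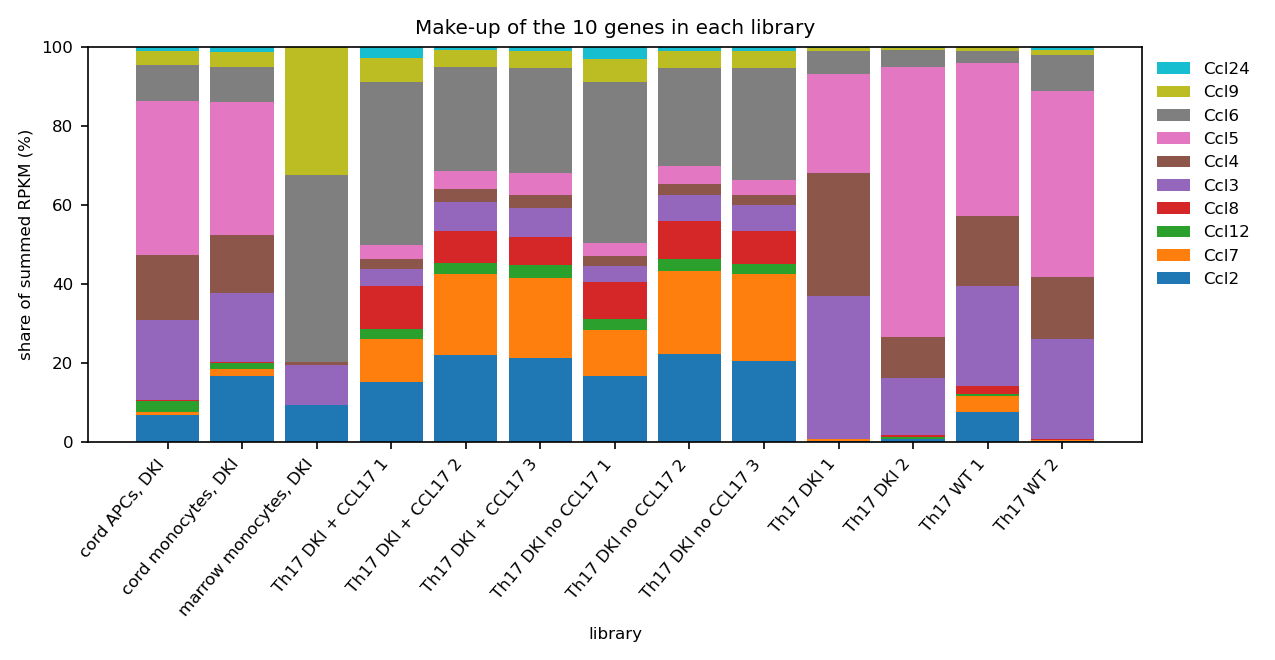
Share of each gene in the summed RPKM of the 10 genes (vertical axis, percent), 1 bar per library. The pink Ccl5 segment is 39.0% and 33.5% of the bar in the spinal cord APC and monocyte libraries, and the grey Ccl6 and olive Ccl9 segments are 47.3% and 32.4% in bone marrow monocytes.

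Spinal cord monocytes were set against bone marrow monocytes to see how these genes differ between monocytes at the inflamed site and at their source. Most of the family was higher in the spinal cord library, led by Ccl5, Ccl12, Ccl7, Ccl4 and Ccl24, while the CCR1 ligands Ccl6 and Ccl9 were lower there. With 1 library each there is no replicate check and no test, and ratios of RPKM are given with exact binomial 95% intervals on the estimated reads, which cover counting error only. Of the 9 genes that reached an RPKM of 5 in at least 1 of the libraries, 7 were at least 4-fold higher in the spinal cord on the log2(RPKM + 1) scale and 0 were lower by as much. Across all 8182 genes that met this filter, 6.23% were at least 4-fold higher and 5.13% at least 4-fold lower, and the median log2 difference was -0.37, against 4.87 for the 9 chemokines. Ccl5, Ccl7, Ccl12 and Ccl24 met the filter only through the spinal cord library in which they are high, so this count and median add no support to their values.

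Among the CCR2 ligands, Ccl2, the main attractant of inflammatory monocytes, stood at 569 RPKM in spinal cord and 83.2 RPKM in bone marrow monocytes, 6.83-fold higher (6.53 to 7.16). Ccl7, a close relative of Ccl2 that also binds CCR1 and CCR3, had 60.2 RPKM in spinal cord monocytes, against 0.232 RPKM from 6 reads in bone marrow monocytes, a ratio of 259 (117 to 696). Ccl12, a mouse CCR2 ligand, had 58.2 RPKM against 0.116 RPKM, with 2 reads in the marrow library and a ratio of 503 (137 to 4097). Bone marrow monocytes held Ccl2 but few reads of its neighbours Ccl7 and Ccl12, and the ratio of Ccl2 to Ccl7 was 9.44 in spinal cord and 358 in bone marrow monocytes. Ccl8 was low in the spinal cord library too, at 2.33 RPKM from 31 reads, against 0 reads in bone marrow, which allow up to 0.185 RPKM from 3 reads.

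Ccl3, Ccl4 and Ccl5, which attract myeloid cells and T cells, were all higher in the spinal cord library. Ccl5, which also binds CCR1 and CCR3, had 1147 RPKM in spinal cord monocytes and 0.990 RPKM in bone marrow monocytes, where it rested on 17 reads, a ratio of 1158 (710 to 1953). Ccl4 had 508 RPKM and 5.96 RPKM in the same order, a ratio of 85.2 (71.2 to 102). Ccl3 differed less, with 597 RPKM in spinal cord and 89.7 RPKM in bone marrow monocytes (6.65-fold, 6.36 to 6.97). The ratio of Ccl3 to Ccl4 was 1.18 in spinal cord and 15.0 in bone marrow monocytes. Ccl24 had 45.0 RPKM in the spinal cord library and 0.577 RPKM from 24 reads in the marrow library, a ratio of 78.0 (51.6 to 121).

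Ccl6 and Ccl9, CCR1 ligands of myeloid cells, ran the other way. Ccl6 had 308 RPKM in spinal cord monocytes and 420 RPKM in bone marrow monocytes, 1.36-fold lower (1.33 to 1.40). Ccl9 had 128 RPKM in spinal cord monocytes and 287 RPKM in bone marrow monocytes, 2.25-fold lower (2.20 to 2.30). Relative to the median of all genes, the log2 differences were -0.08 for Ccl6 and -0.79 for Ccl9.

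The receptors of these ligands also differed between the monocyte libraries. Of 8 receptor genes, 5 met the filter, 3 were at least 4-fold higher in the spinal cord and 1 at least 4-fold lower. Ccr2, the receptor of Ccl2, Ccl7 and Ccl12, had 189 RPKM in spinal cord and 955 RPKM in bone marrow monocytes. Ccrl2, an atypical receptor, had 781 RPKM against 4.71 RPKM. Ackr1, an atypical receptor that binds many of these chemokines, had 6.81 RPKM against 0.054 RPKM, and Ccr1 had 164 RPKM against 95.3 RPKM. Ccrl2 and Ackr1 met the filter only through the spinal cord library, so the receptor count adds no support to their values. Of 12 genes of chemokine receptor signalling, 1 was at least 4-fold higher and 0 lower. The higher gene was Rgs1, with 710 RPKM in spinal cord and 3.05 RPKM in bone marrow monocytes. Rgs1 met the filter only through the spinal cord library, so that count adds no support to its value.

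Other gene lists moved with the chemokines between these libraries. Of 10 NF-kB feedback and target genes, 6 were at least 4-fold higher in spinal cord monocytes (median log2 difference 2.86). Among them was Tnfaip3, an inhibitor of NF-kB signalling, with 408 RPKM against 7.78 RPKM in bone marrow monocytes. Traf1, also among them, had 24.9 RPKM against 0.147 RPKM and met the filter only through the spinal cord library. The count and median of this list therefore add no support to the value of Traf1. Of 10 interferon response genes 6 were at least 4-fold higher (median 2.14), of which Rsad2 and Ifi44 met the filter only through the spinal cord library. Of 10 immediate early and stress genes, which can be induced while tissue is dissociated, 7 were at least 4-fold higher (median 2.30), none was at 0 in either library, and their sum was 7496 RPKM in spinal cord and 1967 RPKM in bone marrow monocytes. Microglia markers summed to 495 RPKM in spinal cord and 191 RPKM in bone marrow, with 4 of the 8 that met the filter at least 4-fold higher. Those 4 met it only through the spinal cord library, so that count adds no support. Neutrophil markers summed to 787 RPKM and 6618 RPKM, with 6 of 6 at least 4-fold lower in the cord. Classical monocyte markers summed to 5750 RPKM in spinal cord and 10815 RPKM in bone marrow monocytes, with 5 of 8 at least 4-fold lower. The part of these differences in the chemokine values was not tested.

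**Figure D3:**
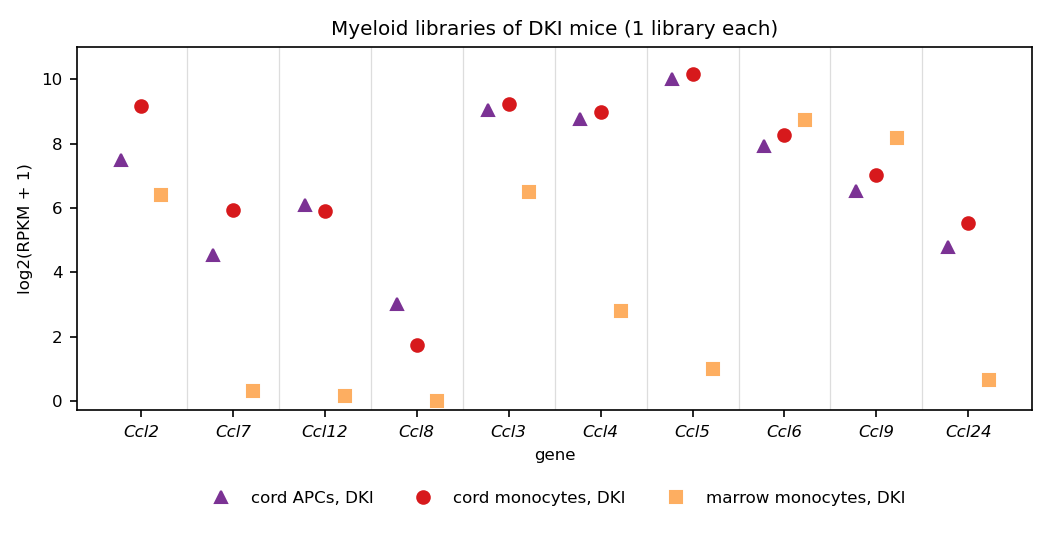
Level of each gene as log2(RPKM + 1) (vertical axis) in the 3 myeloid libraries, with 1 symbol per library. The square for bone marrow monocytes lies below both spinal cord symbols for 8 genes and above them for Ccl6 and Ccl9.

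Spinal cord APCs and spinal cord monocytes had much the same set of chemokines, with lower Ccl2 and Ccl7 and higher Ccl8 in APCs. Of the 10 genes, none differed 4-fold between these libraries, where 0.32% of 7499 genes did. The median log2 difference of the 10 was -0.29, and 8 were lower in APCs by any amount, against a median of 0.03 and 45% lower across all genes. Ccl2 differed most, with 178 RPKM in APCs and 569 RPKM in spinal cord monocytes (3.19-fold lower, 3.07 to 3.31). Ccl7 had 22.4 RPKM in APCs and 60.2 RPKM in monocytes (2.69-fold lower, 2.41 to 3.01). Their neighbour Ccl12 was not lower, with 66.7 RPKM in APCs and 58.2 RPKM in monocytes (1.15-fold higher, 1.04 to 1.26). Ccl8 had 6.98 RPKM from 86 reads in APCs and 2.33 RPKM from 31 reads in monocytes, 3.00-fold higher (1.99 to 4.72). Ccl24 was 1.70-fold lower (1.56 to 1.86), at 26.4 RPKM in APCs and 45.0 RPKM in monocytes.

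Ccl3, Ccl4, Ccl5, Ccl6 and Ccl9 were 1.13-fold to 1.41-fold lower in APCs. Ccl5 had 1017 RPKM in APCs and 1147 RPKM in monocytes, and was the most abundant of the 10 genes in both. Ccr2 had 70.7 RPKM in APCs and 189 RPKM in monocytes, and Ccr1 83.5 RPKM and 164 RPKM. Of the other CC chemokines, Ccl17 and Ccl22, CCR4 ligands typical of dendritic cells, were at least 4-fold higher in APCs, Ccl22 at 78.5 RPKM against 3.08 RPKM and Ccl17 at 12.8 RPKM against 1.67 RPKM. Both met the filter only through the APC library, so passing it adds no support to their values. Beside these values, microglia markers summed to 1256 RPKM in APCs and 495 RPKM in monocytes, classical monocyte markers to 2097 RPKM and 5750 RPKM, and dendritic cell markers to 93.8 RPKM and 11.0 RPKM, with 3 of the 3 that met the filter at least 4-fold higher in APCs. Those 3 dendritic cell markers (Ccr7, Fscn1 and Cacnb3) met the filter only through the APC library, so that count adds no support. No marker of these lists was at 0 in either library. The 10 interferon response genes summed to 571 RPKM in APCs and 950 RPKM in monocytes (median log2 difference -0.88). Their part in the chemokine differences was not tested.

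The withCCL17 and noCCL17 cultures held these chemokines at levels that the DKI cultures did not. The noCCL17 and the DKI cultures are, by their labels, sets of DKI Th17 cells without added CCL17, and the set cannot be told apart from anything else that differed between them. In limma on all 10 Th17 libraries, 9 of the 10 chemokines rose in noCCL17 over DKI cultures at an adjusted p under 0.05, and Ccl5 did not pass. Across 11507 genes tested, 15.4% rose and 17.8% fell. Ccl2, Ccl7, Ccl8, Ccl9, Ccl12 and Ccl24 met the filter of RPKM of at least 1 only through the noCCL17 libraries, so the count of 9 adds no support to their values.

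Ccl2 had 88.4, 184 and 172 RPKM in the noCCL17 cultures, against 0.068 and 0.305 RPKM in the DKI cultures, where it rested on 1 and 5 reads (log2 fold change 6.91, SE 0.74, limma adjusted p = 0.000429). Ccl7 had 61.0, 175 and 181 RPKM in noCCL17 cultures, against 0.137 RPKM and 0 reads in DKI cultures (6.88, SE 0.69, limma adjusted p = 0.000344). Both genes were lowest in noCCL17 replicate 1, which still lay far above the DKI libraries. Ccl8 had 49.9, 79.7 and 69.6 RPKM in noCCL17 cultures, against 0 and 0.192 RPKM in DKI cultures (5.92, SE 0.36, limma adjusted p = 4.15e-05). Ccl12 had 14.4, 26.9 and 22.9 RPKM, against 0 and 0.275 RPKM (4.27, SE 0.32, limma adjusted p = 8.38e-05). These 4 genes of the Ccl2 cluster did not overlap between the sets, as was so, in this direction, for 26% of all genes.

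Ccl6 and Ccl9 gave the most even values. Ccl6 had 215, 206 and 236 RPKM in noCCL17 cultures, against 1.80 and 2.02 RPKM in DKI cultures (6.24, SE 0.14, limma adjusted p = 1.27e-07). Ccl9 had 30.0, 35.5 and 36.8 RPKM, against 0.238 and 0.294 RPKM (4.79, SE 0.12, limma adjusted p = 1.27e-07). Ccl24 had 16.5, 8.19 and 8.01 RPKM in noCCL17 cultures, against 0.085 and 0.076 RPKM in DKI cultures (3.39, SE 0.41, limma adjusted p = 0.000723), and was highest in the replicate in which Ccl2 and Ccl7 were lowest.

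Ccl3, Ccl4 and Ccl5, which activated T cells also make, differed least. Ccl3 had 21.2, 54.2 and 53.3 RPKM in noCCL17 cultures, against 11.2 and 6.72 RPKM in DKI cultures (2.06, SE 0.51, limma adjusted p = 0.0157). Ccl4 had 12.6, 23.8 and 20.7 RPKM, against 9.67 and 4.77 RPKM (1.31, SE 0.41, limma adjusted p = 0.0400). The groups did not overlap for either gene, but the call of Ccl3 was lost without noCCL17 replicate 2 (limma adjusted p = 0.0517), noCCL17 replicate 3 (0.0539) or DKI replicate 2 (0.0885). The call of Ccl4 was lost without the same libraries (0.115, 0.107 and 0.221), without the filter on low values (0.0624), in a fit of the 5 libraries alone (0.0552) and with replicate number as a block (0.0978). Ccl5 had 18.3, 38.3 and 32.5 RPKM in noCCL17 cultures, against 7.76 and 31.5 RPKM in DKI cultures, and the groups overlapped (0.80, SE 0.57, limma adjusted p = 0.312). Without DKI replicate 1 its log2 fold change was -0.14, and without DKI replicate 2 it was 1.75 (limma adjusted p = 0.0412).

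**Figure D4:**
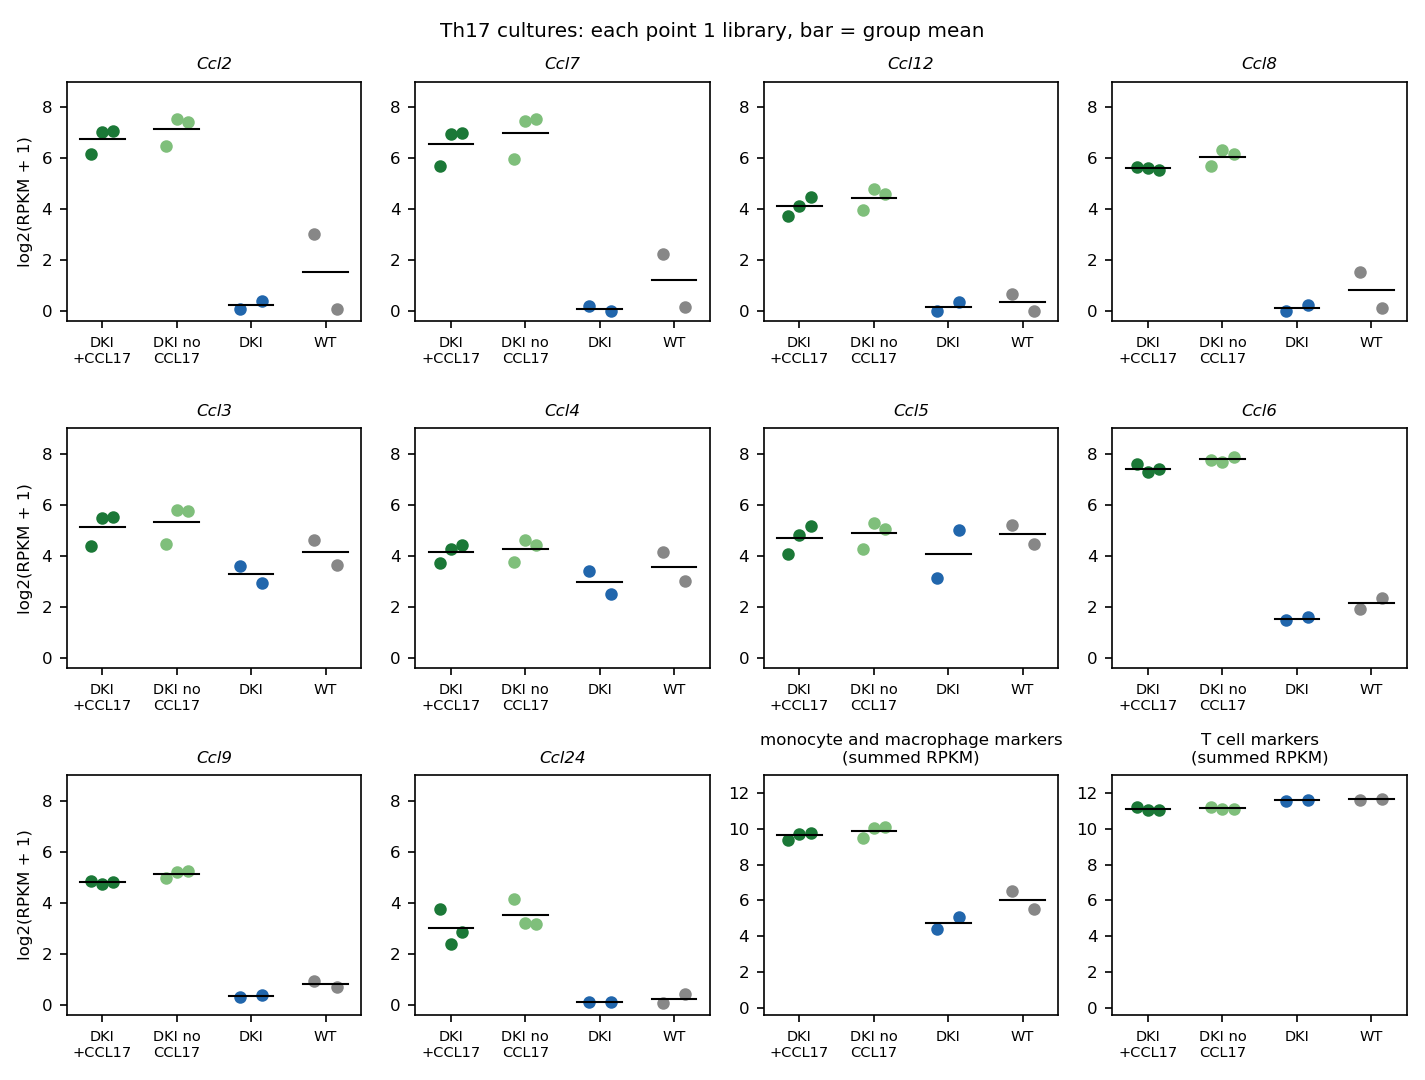
Level of each gene in the 10 Th17 libraries as log2(RPKM + 1) (vertical axis), with 1 point per library and the group mean as a bar, and the summed monocyte and macrophage and T cell markers in the last panels. Points of the withCCL17 and noCCL17 cultures lie above those of the DKI and WT cultures for Ccl2, Ccl7, Ccl12, Ccl8, Ccl6, Ccl9 and Ccl24 and for the macrophage markers, whereas Ccl5 overlaps in all 4 groups.

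Markers of some myeloid and other cells, but not of all, moved with the chemokines between these sets of cultures. All 10 monocyte and macrophage markers rose in noCCL17 over DKI cultures (median log2 fold change 4.09), and they summed to 703 to 1107 RPKM in noCCL17 and 20.3 to 32.5 RPKM in DKI cultures, where 1 of the 10 was at 0 in replicate 1. Of the neutrophil markers 7 of 8 tested rose, of the B cell markers 6 of 6, and of the mast cell, basophil and eosinophil markers 5 of 6, while 5 of 8 T cell markers fell and their sum was 2230 to 2423 RPKM in noCCL17 and 3018 to 3112 RPKM in DKI cultures. Several markers of the rising lists met the filter only through the noCCL17 libraries, among them Ltf, Camp, Pax5, Blk, Prg2 and Epx. The counts of these lists therefore add no support to those values. Further lists were mixed or did not move. Of 6 dendritic cell markers tested 0 rose and 2 fell, and of 7 classical monocyte markers 3 rose and 2 fell. Of 4 endothelial and fibroblast markers 2 rose, while 0 of 2 microglia markers and 0 of 4 CD8 T and NK cell markers were called. The classical monocyte markers F13a1, Chil3 and Cd177 also met the filter only through the noCCL17 libraries, as did Cdh5, Kdr and Dcn. The counts of rising markers in their lists add no support to those values. The part of any of these cells in the chemokine values was not tested. Set against the macrophage marker sum of the same library, 7 of the chemokines stood higher in all 6 withCCL17 and noCCL17 cultures than in each myeloid library, without a test. These were Ccl2, Ccl6, Ccl7, Ccl8, Ccl9, Ccl12 and Ccl24. Ccl8 was 5.19% to 7.46% of that sum in these 6 cultures, against 0.0434% in spinal cord APCs, 0.0152% in spinal cord monocytes and 0% in bone marrow monocytes. Ccl7 was 7.53% to 16.4% of it, against 0.139%, 0.393% and 0.0011%, and Ccl6 18.2% to 30.5%, against 1.50%, 2.01% and 2.06%. Ccl5 and Ccl4 lay below the spinal cord libraries instead. Ccl5 was 2.37% to 3.98% of the marker sum in these cultures, against 6.33% in spinal cord APCs, 7.49% in spinal cord monocytes and 0.0049% in bone marrow monocytes, and Ccl4 1.79% to 2.36%, against 2.69%, 3.32% and 0.0293%. Ccl3 overlapped the spinal cord libraries, at 2.97% to 5.17%, against 3.29% and 3.90%. The ratio of Ccl2 to Ccl7 was 0.946 to 1.45 in these cultures, against 7.96 and 9.44 in spinal cord APCs and monocytes. High shares of the marker sum were not confined to the CCL17 experiment. The sum itself was only 20.3 to 32.5 RPKM in DKI and 45.8 to 91.1 RPKM in WT cultures. The share of Ccl6 stood above each myeloid library in every DKI and WT culture. In WT replicate 1 those of Ccl2, Ccl7 and Ccl8 did too, while that of Ccl9 stayed below bone marrow monocytes in every DKI and WT culture.

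Of the 5 receptor genes tested, Ccr1 rose, at 35.4 to 36.2 RPKM in noCCL17 and 9.98 and 24.6 RPKM in DKI cultures (log2 fold change 1.14, SE 0.30, limma adjusted p = 0.0201). Ccr2 fell, at 15.2 to 23.1 RPKM in noCCL17 and 27.7 and 38.5 RPKM in DKI cultures (-0.86, SE 0.27, limma adjusted p = 0.0381). Ccr8 and Ccrl2 did not pass. Of the 4 other CC chemokines tested, Ccl20, the CCR6 ligand made by Th17 cells, rose (0.97, SE 0.20, limma adjusted p = 0.00771).

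Within the CCL17 experiment, the addition of CCL17 was compared with its absence in DKI cells, and the chemokines were slightly lower with CCL17 in most pairs of cultures without passing the test. In limma on these 6 libraries, 0 of the 10 chemokines passed at an adjusted p under 0.05, and 3 had an unadjusted p under 0.05. The background was 0% of 11297 genes, with 411 at an unadjusted p under 0.05. Every chemokine had a negative log2 difference, -0.13 to -0.51 with a median of -0.34, against a median of -0.01 and 54.2% negative over all genes. Adjusted p was 0.999 for each of the 10.

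Ccl6 had 192, 155 and 168 RPKM in withCCL17 cultures, against 215, 206 and 236 RPKM in noCCL17 cultures (log2 difference -0.35, SE 0.10, unadjusted p = 0.00939 in limma). Ccl9 had 28.2, 25.6 and 27.4 RPKM, against 30.0, 35.5 and 36.8 RPKM (-0.32, SE 0.09), and Ccl8 49.9, 47.7 and 45.6 RPKM, against 49.9, 79.7 and 69.6 RPKM (-0.44, SE 0.16). For these 3 genes the withCCL17 libraries lay below the noCCL17 libraries without overlap, which 4.28% of all genes did in this direction. For Ccl8 the margin in replicate 1 was only -0.0019 on the log2 scale.

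Groups of the remaining 7 genes overlapped. Ccl2 had 70.1, 130 and 134 RPKM in withCCL17 cultures, against 88.4, 184 and 172 RPKM in noCCL17 cultures (-0.40, SE 0.36). Ccl7 had 50.3, 121 and 127 RPKM, against 61.0, 175 and 181 RPKM (-0.44, SE 0.53). Replicate 1 was the lowest of its group for both genes with and without CCL17. Ccl24 had 12.5, 4.22 and 6.17 RPKM in withCCL17 cultures, against 16.5, 8.19 and 8.01 RPKM in noCCL17 cultures (-0.51, SE 0.41), with replicate 1 highest in each group. Ccl12 had 12.2, 16.6 and 21.2 RPKM, against 14.4, 26.9 and 22.9 RPKM (-0.33, SE 0.27).

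Ccl3, Ccl4 and Ccl5 were nearest to 0 difference. Ccl3 had 19.9, 43.3 and 45.5 RPKM in withCCL17 cultures, against 21.2, 54.2 and 53.3 RPKM in noCCL17 cultures (-0.21, SE 0.45). Ccl4 had 12.2, 18.3 and 20.8 RPKM, against 12.6, 23.8 and 20.7 RPKM (-0.13, SE 0.27). Ccl5 had 15.9, 27.6 and 35.0 RPKM, against 18.3, 38.3 and 32.5 RPKM (-0.19, SE 0.36).

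Taken within pairs of the same replicate number, 8 of the 10 chemokines were lower with CCL17 in all 3 pairs, and Ccl4 and Ccl5 in 2 of 3. Across all genes tested, 20.1% were lower in all 3 pairs and 16.4% higher. Differences were smallest in pair 1 for 6 of the 10 genes, at -0.0019 to -0.37 over all 10 genes in that pair, against -0.32 to -0.82 in pair 2. With replicate number as a block, limma called 2 genes in all and 0 of the 10 chemokines, whose adjusted p was then 0.0654 (Ccl2 and Ccl7) to 0.510 (Ccl4). Monocyte and macrophage markers moved alongside, with 9 of 10 lower in all 3 pairs, pair medians of -0.07, -0.31 and -0.35, and summed levels of 668 to 879 RPKM in withCCL17 and 703 to 1107 RPKM in noCCL17 cultures, where none of the 10 was at 0. T cell markers were also lower in all 3 pairs for 6 of 8 genes, with smaller pair medians of -0.04, -0.09 and -0.07 and sums of 2094 to 2360 RPKM in withCCL17 and 2230 to 2423 RPKM in noCCL17 cultures. The part of either list in the chemokine differences was not tested. Neutrophil markers had 2 of 8 lower and 1 higher in all 3 pairs, and B cell markers 0 of 6 in either direction. Of the receptors 0 of 5 tested were called, and 2 were lower in all 3 pairs.

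**Figure D5:**
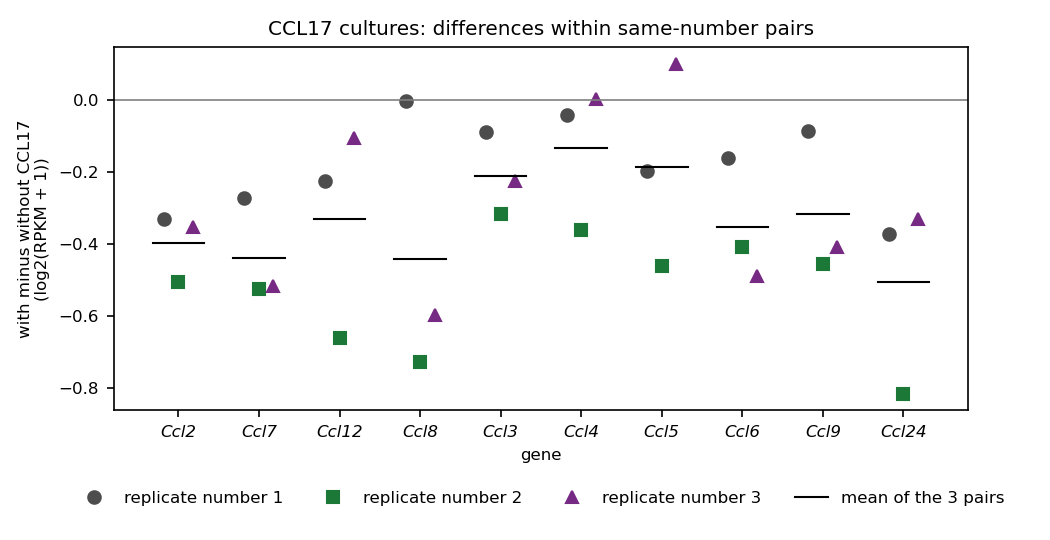
Difference of log2(RPKM + 1), with minus without CCL17, within each pair of cultures of the same replicate number (vertical axis), for each gene, with the mean of the 3 pairs as a bar. All means lie below 0, from -0.13 for Ccl4 to -0.51 for Ccl24, and the only points above 0 are those of pair 3 for Ccl4 and Ccl5.

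DKI cultures were compared with WT cultures to ask whether expression differs in Th17 cells that lack STAT5 tetramers, and none of these chemokines passed the main test, which ignores replicate number. Of the 10 chemokines, 4 met the filter on low values and 0 were called in limma, where 0% of 11078 genes were called and 1879 had an unadjusted p under 0.05, 1 of the 4 chemokines among them. The smallest adjusted p of any gene was 0.0659, and the count of genes called rested on single libraries, with 580 called without DKI replicate 2 and 123 without WT replicate 2, none of them among the 4 chemokines. All 4 were lower in DKI cultures, by -0.61 to -0.86 on the log2 scale. Over all genes tested the median was 0.03, and 45.3% were negative. Without DKI replicate 1 the log2 difference of Ccl5 was 0.17. With replicate number as a block, limma called 1281 genes, 3 of the 4 chemokines among them (adjusted p of 0.0257 for Ccl3, 0.0351 for Ccl4 and 0.0331 for Ccl6). No label ties DKI and WT libraries of the same number, so whether they form pairs is unknown. The DKI libraries of this comparison are also the ones set against the noCCL17 cultures above, and the noCCL17 libraries served in the CCL17 comparison too, so the comparisons are not independent.

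Ccl6 had 1.80 and 2.02 RPKM in DKI cultures, against 2.81 and 4.16 RPKM in WT cultures (-0.61, SE 0.15, limma adjusted p = 0.147), and the groups did not overlap. Ccl3 had 11.2 and 6.72 RPKM in DKI cultures, against 23.7 and 11.6 RPKM in WT cultures (-0.86, SE 0.56, limma adjusted p = 0.443), also without overlap, which 20.1% of all genes showed in this direction. Ccl4 had 9.67 and 4.77 RPKM, against 16.6 and 7.12 RPKM (-0.61, SE 0.45, limma adjusted p = 0.502). Ccl5 had 7.76 and 31.5 RPKM, against 36.5 and 21.3 RPKM (-0.78, SE 0.62, limma adjusted p = 0.535), so that its libraries differed more within DKI than between the group means.

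The other 6 genes were too low to test in these 4 libraries, and WT replicate 1 stood apart for several of them. Ccl2 had 0.068 and 0.305 RPKM in DKI cultures, against 7.12 and 0.061 RPKM in WT cultures, with 104 reads in WT replicate 1 and 1 in WT replicate 2. Ccl7 had 0.137 RPKM and 0 reads in DKI cultures, against 3.75 and 0.122 RPKM in WT cultures, and Ccl8 0 and 0.192 RPKM, against 1.92 and 0.096 RPKM. Ccl12 had 0 and 0.275 RPKM in DKI cultures, against 0.612 and 0 RPKM in WT cultures. A library with 0 reads of these genes allows up to 0.187 RPKM of Ccl7, 0.326 RPKM of Ccl8 and 0.310 RPKM of Ccl12 in DKI cultures, and 0.278 RPKM of Ccl12 in WT replicate 2, from 3 reads. Ccl9 had 0.238 and 0.294 RPKM, against 0.908 and 0.618 RPKM, and Ccl24 0.085 and 0.076 RPKM, against 0.043 and 0.342 RPKM. WT replicate 1 also had the highest macrophage marker sum of these cultures, 91.1 RPKM, against 20.3 and 32.5 RPKM in DKI cultures and 45.8 RPKM in WT replicate 2, and its part was not tested. Of the 7 macrophage markers tested all had negative log2 differences (median -0.99) and 0 were called, and of the 10 interferon response genes likewise (median -1.61, 0 called). The interferon response genes summed to 356 and 669 RPKM in DKI cultures, against 2282 RPKM in WT replicate 1 and 616 RPKM in WT replicate 2, so that WT replicate 1 alone stood above the DKI range. Of the receptors, 0 of 5 tested were called.

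Genes with the most similar profiles were found over the 7 group means, as the root mean square difference of mean-centred log2(RPKM + 1) among 9755 genes. The means share libraries of unequal number, and the measure is a description. The nearest gene to Ccl3 was Ctss, a lysosomal protease of antigen-presenting cells (0.231). Ccl12 lay closest to Spp1, the secreted protein osteopontin (0.353), and Ccl24 to Lhfpl2 (0.378). Ccl9 lay closest to Wfdc17 (0.494), Ccl6 to Sirpa, a myeloid inhibitory receptor (0.700), and Ccl2 to Clec7a, a macrophage receptor for fungal glucans (0.670). Ccl8 lay nearest Pf4, a CXC chemokine of platelets and some macrophages (0.609), and the collagenase gene Mmp13 (0.690). Ccl7 lay nearest Clec4n (0.895) and the macrophage elastase gene Mmp12 (0.901), and Ccl5 nearest Cd83, a marker of activated dendritic cells (0.904). Within the family, Ccl12 and Ccl24, on different chromosomes, were closest to each other (0.608), followed by Ccl6 and Ccl9 (0.719), whereas Ccl3 and Ccl4, whose models overlap, were 1.14 apart.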

How the data were processed

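Per the labels' protocols, KAPA mRNA HyperPrep libraries were made from column-purified RNA, and Subread and featureCounts with mouse build mm10 were used, per the submitters' processing notes. Tool versions, settings and strand are not given in the sources used here. For each of the 21073 genes, the deposited values were log2(RPKM + 1), scaled by the authors, with 0.0001 for genes without reads, which was set to 0. Of the gene identifiers, 20857 matched the RefSeq table used for names and 216 kept the deposited symbol. The spinal cord APC column is named for monocyte-derived cells and was matched as the only sample and column left. Read totals were estimated from the value of 1 read, and 73.5% to 78.2% of the estimated counts of single-transcript genes up to 5 reads lay within 0.1 of a whole number (20% if spread evenly). All 12 low values of the chemokines did so. Counting intervals and floors (3 reads) are at 95% and cover counting error only, since PCR copies are not independent molecules.

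limma 3.58.1 (R 4.3.3) compared the Th17 groups (eBayes with trend, Benjamini-Hochberg over all genes tested, called at an adjusted p under 0.05), on all 10 Th17 libraries or, for CCL17, on its 6. Genes needed an RPKM of at least 1 in at least 2 libraries compared (3 for CCL17). Folds on the log2(RPKM + 1) scale understate changes of low genes. Myeloid libraries, 1 per group, were not tested, and genes reaching an RPKM of 5 in at least 1 of the libraries were counted at a log2 difference of 2. The procedure was tested on simulated data. Same-number cultures of the CCL17 experiment had residual correlations of 0.77, 0.51 and 0.52 over genes and were taken as pairs on that ground, although no label says so and replicates 2 and 3 also correlated across numbers (0.53 and 0.50). Promoter windows came from RefSeq (GRCm38.p6), aligned locally with Biopython 1.88. All 10 chemokines are named in every comparison, with up to 4 genes per list and the nearest profiles, apart from a few that are not reported here. The members and the lists were chosen with earlier results of these data known.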

Additional observations from a re-analysis of the deposited data

How the results depend on the processing

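The alternatives were a pseudocount of 0.1, no filter or a looser one, median centring, another set of libraries in the fit, the replicate block and leaving out each library. Of the alternative values for single chemokines, 262 kept direction and side of the threshold, 4 newly passed, 9 no longer passed and 9 changed sign. For DKI against WT the number of genes called was 0, 23 without the filter and 0 to 580 when a library was left out (580 without DKI replicate 2, 123 without WT replicate 2 and 4 without DKI replicate 1). With the replicate block it was 1281, of which 3 were chemokines (limma adjusted p of 0.0257 for Ccl3, 0.0351 for Ccl4 and 0.0331 for Ccl6); these samples share only a number, with a correlation of 0.45 between the pairs of deviations. Leaving out a library moved Ccl5 there between -1.72 and 0.17, the highest without DKI replicate 1. For CCL17 the block called 2 genes and no chemokine, and no other alternative called a chemokine. With a library left out, Ccl3 ran over -0.64 to 0.16, Ccl4 over -0.39 to 0.078 and Ccl5 over -0.49 to 0.12; each sign changed without withCCL17 replicate 1 or noCCL17 replicate 2, and that of Ccl3 also without noCCL17 replicate 3. For noCCL17 against DKI cultures, 3823 genes were called, 2423 in a fit of those 5 libraries and 2513 (without noCCL17 replicate 3) to 3526 with a library left out; 7 to 9 chemokines were called throughout, and Ccl5 ran over -0.14 to 1.75, the lowest without DKI replicate 1. At a log2 difference of 1, 2494 genes in place of 930 differed between spinal cord and bone marrow monocytes, and 187 in place of 24 between spinal cord APCs and monocytes, 3 chemokines among them. The cause of these changes was not tested. With few reads, Ccl8, Ccl12 and Ccl7 in bone marrow monocytes and in DKI and WT cultures are known only within wide intervals.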
